A study of Rattus norvegicus with 10 samples.

Results

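The genes described here encode load-sensing proteins of the Z-disc, the plate at each end of the sarcomere where the thin filaments of neighbouring contractile units are anchored. They were chosen by name: 8 gene symbols were looked up in the deposited expression table, 7 of them had a row, and these 7 had 8 of the 17221 transcripts in the table. Xirp1, an actin-binding repeat protein of the muscle membrane, had no row among the values used here and was not analysed here. Of the 8 transcripts, 7 passed the filter on low values, which kept 10259 transcripts with at least 1 CPM (read counts scaled to a common library size) in both libraries of at least 1 group.

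The data are RNA-seq profiles of subcutaneous muscle taken from 10 female Wistar rats with collagen-induced arthritis (CIA), a model of rheumatoid arthritis (RA) raised by immunisation with bovine type II collagen in adjuvant. The rats form 5 groups of 2: RA_0 stands for the animals taken before any therapy, AP for acupuncture and PLA for placebo, each with 2 rats at 1 h (AP_1h and PLA_1h) and 2 at 34 days (AP_34d and PLA_34d). Per the study's methods, acupuncture was a mechanical stimulation in which a short needle was inserted and twirled at points of the lower back and below the knee, whereas placebo was saline injected into the peritoneum, so the placebo animals had no needle at those points. All animals had CIA, all were shaved at the stimulation points, therapy began once arthritis had set in, and the age of the rats is not given in the sources used here. The study's methods describe the samples as tissue under the skin around the stimulated points, with muscle included. The labels do not say at which of these points each piece was cut. There is no group without arthritis, so every change below is one within arthritic animals.

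Muscle cells read mechanical load partly at the Z-disc and at the elastic protein titin, which runs from the Z-disc through the sarcomere. Several LIM domain and ankyrin repeat proteins bind there, can also enter the nucleus, and are known as genes whose mRNA responds to stretch, unloading, denervation or eccentric exercise. Slow and fast fibres carry different sets of these proteins. In bulk muscle, fewer cells of a type and less RNA per cell cannot be told apart.

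The libraries held between 5371687 and 8899521 reads assigned to transcripts, so that 1 CPM corresponded to between 4.19 and 10.1 reads. The tissue label was checked against its defining genes. The 8 rows of the skeletal muscle list (Acta1, Ckm, Mb and others) summed to between 103426 and 324658 CPM per library, while in the heart muscle list Nppb and Nkx2-5 were at 0 in all 10 libraries and Nppa and Myl7 never exceeded 0.239 CPM, although Myh6, a myosin heavy chain of the heart, lay between 96.4 and 2573 CPM. Of the rest of that list, Tnnt2 lay between 0.973 CPM in AP_1h replicate 1 and 12.7 CPM in AP_34d replicate 1. Gata4 reached 2.13 CPM in PLA_34d replicate 1, and Tnni3 reached 0.391 CPM in AP_34d replicate 1. PLA_34d replicate 1 stood apart, with Cd79b, a B cell gene, at 72.0 CPM against at most 1.82 in the other libraries and Cd3e, a T cell gene, at 36.3 CPM against at most 4.22. The summed level of the slow fibre list (Myh7, Tnni1, Myl2 and others, 12 rows) was between 10192 and 20131 CPM in RA_0, between 1030 and 1155 CPM in AP_1h, between 1873 and 4265 CPM in PLA_1h, between 1936 and 11225 CPM in AP_34d and between 1746 and 20163 CPM in PLA_34d. It therefore differed by more than 10-fold within PLA_34d, and AP_1h held the lowest sums of the series.

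RefSeq promoter windows on build GRCr8, from 250 bases before to 50 bases after the start of the gene, were found for 5 of the 7 genes, in 7 windows, and not for Csrp3 and Ankrd1. Those of Actn2 and Fhl1 are shown because both genes had their lowest levels in AP_1h, and those of Ankrd2 and Fhl2 because both had their lowest group mean in PLA_1h. Capitals mark matches, on either strand, to the TATA box (TATAAA), the MCAT core (CATTCC), the E-box (CANNTG), the CArG box bound by serum response factor, and the MEF2 site. A MEF2 site may overlap a TATA box in the same letters.
Actn2, chr17:62834805-62835104, plus strand: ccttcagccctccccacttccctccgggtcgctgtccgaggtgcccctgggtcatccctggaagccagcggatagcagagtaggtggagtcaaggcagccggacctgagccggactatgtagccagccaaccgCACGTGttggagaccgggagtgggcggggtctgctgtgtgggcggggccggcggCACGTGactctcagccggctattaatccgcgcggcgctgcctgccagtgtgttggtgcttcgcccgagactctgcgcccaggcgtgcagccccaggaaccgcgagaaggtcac
Fhl1, chrX:139638246-139638545, plus strand: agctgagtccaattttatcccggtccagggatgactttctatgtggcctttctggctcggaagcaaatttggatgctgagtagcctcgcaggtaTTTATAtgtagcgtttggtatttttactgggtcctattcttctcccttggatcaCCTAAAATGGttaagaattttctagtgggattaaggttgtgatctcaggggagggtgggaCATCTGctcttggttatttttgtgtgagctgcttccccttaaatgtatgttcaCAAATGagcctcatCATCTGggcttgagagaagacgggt
Ankrd2, chr1:250796169-250796468, plus strand: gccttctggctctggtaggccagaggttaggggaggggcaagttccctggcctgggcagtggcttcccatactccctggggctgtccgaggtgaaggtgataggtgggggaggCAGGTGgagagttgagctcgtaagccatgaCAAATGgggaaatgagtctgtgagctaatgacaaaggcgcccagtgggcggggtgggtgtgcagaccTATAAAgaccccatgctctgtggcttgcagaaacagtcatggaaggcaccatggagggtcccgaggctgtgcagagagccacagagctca
Fhl2, chr9:52954491-52954790, minus strand: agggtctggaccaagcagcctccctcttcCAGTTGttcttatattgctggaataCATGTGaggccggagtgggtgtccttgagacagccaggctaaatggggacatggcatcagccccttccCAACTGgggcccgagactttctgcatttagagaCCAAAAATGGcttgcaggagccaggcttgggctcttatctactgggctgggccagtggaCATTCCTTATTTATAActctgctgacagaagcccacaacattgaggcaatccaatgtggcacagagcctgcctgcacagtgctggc

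A CArG box was present in the Fhl1 window shown and in both Fhl2 windows, against 1.64% of the 33469 RefSeq windows of the rat. A MEF2 site was present in the Fhl2 window shown and in that of Myoz1, against 3.29% of all windows. The TATA box letters were in the windows of Ankrd2, Fhl1 and Fhl2 shown, against 14.2% of all windows, the MCAT core was in that of Fhl2 alone, against 14.2%, and E-boxes were in all 7 windows, against 72.1%. Actn2 carried 2 E-boxes with the same letters, CACGTG, and none of the other motifs. These are matches of letters in a short window and describe no binding.

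No member passed the test in any of the 6 pairs of groups compared. At a Benjamini-Hochberg adjusted p under 0.05 in the limma fit over all transcripts, 0 of 42 tests (7 transcripts in 6 pairs) were called, beside 9 at an unadjusted p under 0.05. At that unadjusted p in limma were 4.83% of the tests of all transcripts. By pair these ran from 266 of 10259 transcripts in PLA_1h against RA_0 to 912 in AP_1h against RA_0. Among all transcripts 0.0292% were called in AP_1h against RA_0 and 0% in each of the other pairs. In 11 of the 42 tests, the libraries of the compared groups did not overlap and differed by at least 2-fold on the log2(CPM + 1) scale, and these are given member by member. The 4 comparisons with RA_0 share its 2 libraries, and the comparisons of AP_1h and PLA_1h share theirs, so these counts are not independent of each other. The smallest p of an exact permutation test between groups of 2 libraries is 0.333, and none was run.

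**Figure D1:**
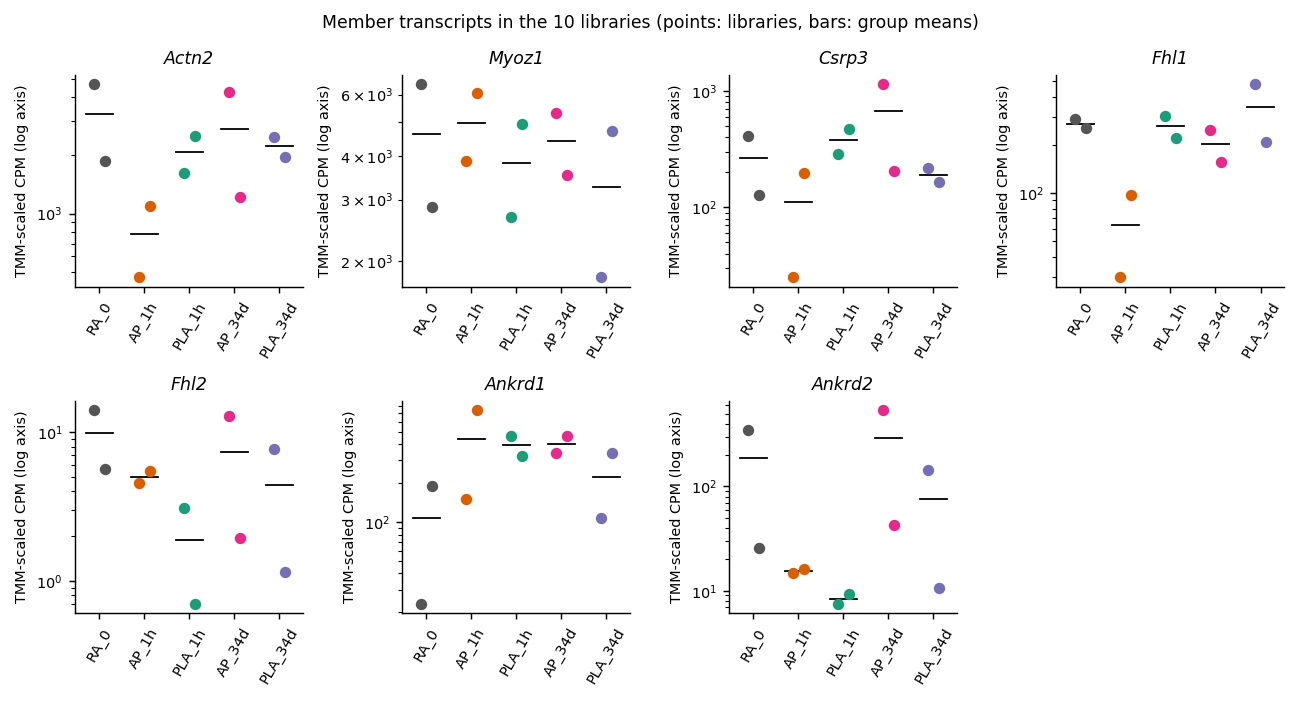
Level of each member transcript in CPM (log axis) in the 10 libraries, by group. Points are libraries and bars are group means. Fhl1 and Actn2 lie below all other libraries in both AP_1h animals, whereas Ankrd2 in RA_0, AP_34d and PLA_34d differs by more than 10-fold between the 2 animals of a group.

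The first members are structural. Actn2 encodes alpha-actinin-2, which cross-links actin filaments at the Z-disc and is a scaffold for other proteins there. Its transcript NM_001170325 lies on rn4 at chr17:68705160-68773260, plus strand. Actn2 was at 4674 and 1862 CPM in RA_0, at 469 and 1092 CPM in AP_1h and at 1622 and 2525 CPM in PLA_1h. At 34 days it was at 4269 and 1224 CPM in AP_34d and at 2505 and 1959 CPM in PLA_34d. Both AP_1h libraries were thus below all 8 others, and the other 4 groups overlapped one another. Group means ran from 3268 CPM ± 1988 (SD, n = 2) in RA_0 through 2747 ± 2153 in AP_34d, 2232 ± 385 in PLA_34d and 2074 ± 639 in PLA_1h to 780 ± 441 in AP_1h.

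On the log2(CPM + 1) scale Actn2 was lower in AP_1h than in RA_0 by a log2 difference of -2.04 (SE 0.72, unadjusted p = 0.0178 and adjusted p = 0.433 in limma). Adjusted p ranged from 0.0542 to 0.990 over the alternatives, so the difference did not pass in any of them. Against PLA_1h the log2 difference was -1.50 (SE 0.72, adjusted p = 1.00 in limma). Without AP_1h replicate 1 the log2 differences of Actn2 were -1.43 against RA_0 and -0.89 against PLA_1h, and without RA_0 replicate 1 that against RA_0 was -1.38. In the remaining 4 pairs it lay between -0.54 and 0.05.

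Myoz1 encodes myozenin-1 (calsarcin-2), which tethers the phosphatase calcineurin to alpha-actinin in fast fibres. Its transcript NM_001109097 lies at chr15:3869805-3877019, plus strand. Myoz1 was at 6425 and 2854 CPM in RA_0, at 3873 and 6059 CPM in AP_1h and at 2683 and 4947 CPM in PLA_1h. It was at 5306 and 3531 CPM in AP_34d and at 1796 and 4712 CPM in PLA_34d. Every group overlapped every other, and the means lay between 3254 CPM ± 2062 (SD, n = 2) in PLA_34d and 4966 ± 1546 in AP_1h. The log2 differences of Myoz1 lay between -0.56 and 0.57, and for AP_1h against RA_0 the value was 0.18 with a 95% interval from -1.41 to 1.77, which leaves room for a change of more than 2-fold in either direction. Of its variance on the log2 scale 21.2% lay between groups, the smallest share of the 7 members, beside a median of 42.4% over all transcripts tested.

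The LIM domain members come next. Csrp3 encodes muscle LIM protein, which sits at the Z-disc and in the nucleus, where it is a cofactor of myogenic transcription factors, and which is known to accumulate in slow and in denervated muscle. Its transcript NM_057144 lies at chr1:98601681-98611747, minus strand. Csrp3 was at 406 and 128 CPM in RA_0, at 25.1 and 197 CPM in AP_1h and at 289 and 469 CPM in PLA_1h. It was at 1142 and 205 CPM in AP_34d and at 218 and 164 CPM in PLA_34d. The lowest value was that of AP_1h replicate 1 and the highest that of AP_34d replicate 1, 45.5-fold apart, and only AP_1h and PLA_1h among the 6 pairs did not overlap.

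Csrp3 was lower in AP_1h than in PLA_1h by a log2 difference of -2.36 (SE 0.98, unadjusted p = 0.0369 and adjusted p = 1.00 in limma). This rests on AP_1h replicate 1, without which the log2 difference was -0.90. At 34 days the log2 difference between AP and PLA was 1.35 (SE 0.98), with groups that overlapped. The change of the AP and PLA difference between 1 h and 34 days, tested as an interaction, was 3.71 in Csrp3 (SE 1.39, unadjusted p = 0.0232 and adjusted p = 1.00 in limma), and 0 of the 7 members passed that test, beside 0% of all transcripts. In the other members the interaction lay between -0.62 and 1.55.

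Fhl1 encodes a protein built of LIM domains that binds titin and is the main member of its family in skeletal muscle. Its transcripts NM_001033926 and NM_145669 share the same span, chrX:141315765-141329277, plus strand. NM_145669 was at 0 in all 10 libraries. By counting error alone this allows a level of up to 0.297 to 0.716 CPM depending on the library. Counting was made by transcript, so reads that fit both transcripts alike could be left out. The level of Fhl1 is uncertain to that extent, and the 0 of NM_145669 sets no upper limit on its level.

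Fhl1 (NM_001033926) was at 289 and 254 CPM in RA_0, at 29.8 and 97.5 CPM in AP_1h and at 303 and 219.9 CPM in PLA_1h. It was at 247 and 157 CPM in AP_34d and at 480 and 208 CPM in PLA_34d. Both AP_1h libraries were below all 8 others, as in Actn2, a pattern that 5.43% of all transcripts tested shared. Group means ran from 344 CPM ± 192 (SD, n = 2) in PLA_34d through 271 ± 24.5 in RA_0, 261 ± 58.7 in PLA_1h and 202 ± 63.3 in AP_34d to 63.7 ± 47.9 in AP_1h. Neighbours in that order overlapped except AP_34d and AP_1h.

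Fhl1 had the smallest unadjusted p of the members. It was lower in AP_1h than in RA_0 by a log2 difference of -2.30 (SE 0.56, unadjusted p = 0.00207 and adjusted p = 0.241 in limma), with a 95% interval from -3.55 to -1.05. DESeq2 on the recovered reads gave -2.09 with an adjusted p of 0.0207, and limma on the libraries of AP_1h and RA_0 alone gave an adjusted p of 0.0457, whereas limma-voom and edgeR did not call it. Against PLA_1h the log2 difference was -2.23 (SE 0.56, unadjusted p = 0.00253 and adjusted p = 0.577 in limma), with an interval from -3.48 to -0.99. AP_1h replicate 1 carried much of the size: without it the log2 differences were -1.46 against RA_0 and -1.39 against PLA_1h. At 34 days the log2 difference of AP_34d from RA_0 was -0.46 and that of PLA_34d was 0.22, both under 1 SE.

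Fhl1 was the member with the largest share of its log2 variance between groups, 77.4%, and its SD within groups, 0.70 on the log2 scale, was at the 87.7th percentile of all transcripts. The transcript most like it over the 10 libraries was Fhl4 (NM_001013172, chr7:20747012-20748614), with a Pearson r of 0.986. Fhl4 belongs to the same family, its level was between 22.7% and 32.6% of that of Fhl1 in every library, and whether reads of one were placed on the other was not tested.

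Fhl2 encodes a related LIM domain protein, best known from heart muscle. Its transcript NM_031677 lies at chr9:42319997-42349055, minus strand. Fhl2 was at 14.1 and 5.64 CPM in RA_0, at 4.54 and 5.46 CPM in AP_1h and at 3.07 and 0.702 CPM in PLA_1h. It was at 12.9 and 1.94 CPM in AP_34d and at 7.74 and 1.14 CPM in PLA_34d. These values rest on between 4 and 69 reads per library, so that the lowest of them, in PLA_1h replicate 2, is near the floor of 0.526 CPM that 3 reads set there. Both PLA_1h libraries were below both of RA_0, with a log2 difference of -1.93 (SE 0.83, unadjusted p = 0.0433 and adjusted p = 1.00 in limma), and both were below AP_1h, where the log2 difference of AP_1h from PLA_1h was 1.18 (SE 0.83, adjusted p = 1.00). Without PLA_1h replicate 2, the library with 4 reads, these were -1.30 and 0.55, without RA_0 replicate 1 the first was -1.34, and with a pseudocount of 4 they were -1.20 and 0.64.

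The ankyrin repeat members bind titin in the elastic part of the sarcomere. Ankrd1 encodes the cardiac ankyrin repeat protein, which is low in resting skeletal muscle and known to be induced by stretch, injury and denervation. Its transcript NM_013220 lies at chr1:240316123-240324801, minus strand. Ankrd1 was at 23.4 and 190 CPM in RA_0, at 151 and 732 CPM in AP_1h and at 463 and 323 CPM in PLA_1h. It was at 340.0 and 460.4 CPM in AP_34d and at 108 and 341 CPM in PLA_34d. Both RA_0 libraries were below all libraries of PLA_1h and AP_34d, and they overlapped those of AP_1h and PLA_34d.

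Ankrd1 was the member with higher levels after therapy in all 4 comparisons with RA_0, with log2 differences of 2.54 in AP_34d, 2.51 in PLA_1h, 2.29 in AP_1h and 1.50 in PLA_34d (SE 0.96 for each). The unadjusted p in limma was 0.0243, 0.0258, 0.0381 and 0.148 in that order, and the adjusted p was 0.967, 1.00, 0.531 and 0.914. These 4 values share the 2 libraries of RA_0, and RA_0 replicate 1 at 23.4 CPM sets their size: without it the log2 difference was 1.05 for AP_34d and 1.02 for PLA_1h. The remaining RA_0 library, at 190 CPM, lay between the 2 libraries of PLA_34d, at 108 and 341 CPM. It also lay between those of AP_1h, at 151 and 732 CPM. Between AP and PLA the log2 differences of Ankrd1 were -0.22 at 1 h (95% interval from -2.35 to 1.92) and 1.04 at 34 days (from -1.10 to 3.17).

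Ankrd2 encodes the sister protein that is enriched in slow fibres and known to follow stretch and load. Its transcript NM_001107589 lies at chr1:248806966-248816413, minus strand. Ankrd2 was at 350 and 25.7 CPM in RA_0, at 14.9 and 16.1 CPM in AP_1h and at 7.53 and 9.30 CPM in PLA_1h. It was at 535 and 43.0 CPM in AP_34d and at 142 and 10.7 CPM in PLA_34d. The 4 libraries taken at 1 h were close to one another, while the pairs of RA_0, AP_34d and PLA_34d differed by 13.6-fold, 12.4-fold and 13.4-fold between the 2 animals. The SD within groups, 2.00 on the log2 scale, was larger than that of 99.98% of all transcripts tested.

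Both groups at 1 h lay below both libraries of RA_0. The log2 difference of Ankrd2 from RA_0 was -3.37 in PLA_1h (SE 1.43, unadjusted p = 0.0397 and adjusted p = 1.00 in limma) and -2.55 in AP_1h (SE 1.43, unadjusted p = 0.104 and adjusted p = 0.663). Without RA_0 replicate 1 these were -1.51 and -0.69. Ankrd2, lower, and Ankrd1, higher, were the members that differed from RA_0 in the same direction by more than 2-fold under both treatments at 1 h, whereas Fhl1 and Actn2 were lower than RA_0 by that much in AP_1h and by log2 differences of -0.07 and -0.54 in PLA_1h. The difference between AP_1h and PLA_1h was 0.81 in Ankrd2 (SE 1.43).

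**Figure D2:**
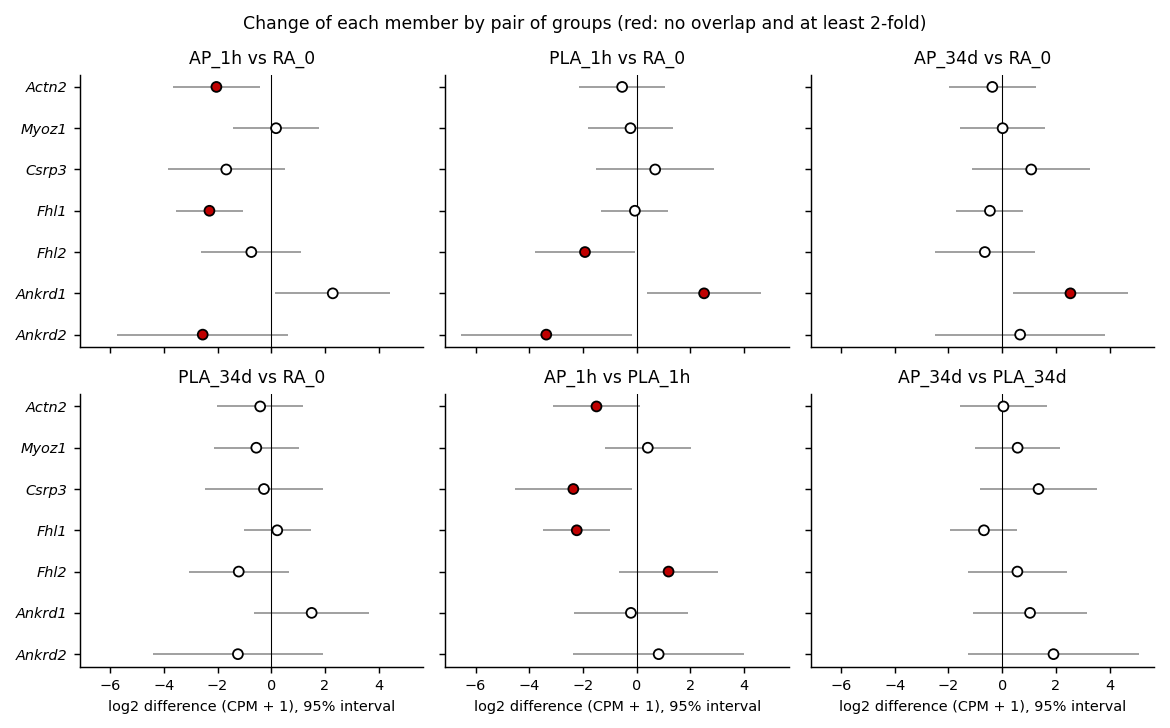
Log2 difference of each member, first group minus second, on the log2(CPM + 1) scale, with 95% intervals from limma, in the 6 pairs of groups. Red points are the 11 tests in which the libraries did not overlap and differed by at least 2-fold, and no point passed the adjusted test.

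Read by pair of groups, AP_1h against RA_0 held 3 of the 7 members lower without overlap and by at least 2-fold (Fhl1, Actn2 and Ankrd2), where 4.52% of all transcripts did so, and 0 higher, where 4.05% did. AP_1h against PLA_1h held 3 lower (Fhl1, Csrp3 and Actn2) against 2.42% of all transcripts, and 1 higher (Fhl2) against 1.64%. PLA_1h against RA_0 held 2 lower (Ankrd2 and Fhl2) against 1.1% and 1 higher (Ankrd1) against 1.76%. AP_34d against RA_0 held 1 higher (Ankrd1) against 2.23% and 0 lower against 1.66%. PLA_34d against RA_0 held 0 in either direction, where 3.37% of all transcripts were higher and 0.78% lower, and AP_34d against PLA_34d held 0 as well, where 1.78% were higher and 3.08% lower. The median log2 difference of the 7 members was -1.68 in AP_1h against RA_0, beside 0.0020 over all transcripts, and between -0.41 and 0.57 in the other pairs. The members were chosen with earlier results of these data known. The counts and shares here, and those by the study's rule below, are therefore a description only.

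By the rule that the study used, namely 2-fold or more at an unadjusted p under 0.05 in transcripts averaging 1 CPM or more, 9 of the 42 tests were met. In AP_1h against RA_0 these were Fhl1 and Actn2 lower, against 3.59% of all transcripts, and Ankrd1 higher, against 2.53%. In AP_1h against PLA_1h they were Fhl1 and Csrp3 lower, against 1.65%. Ankrd1 met it as higher in AP_34d against RA_0, where 1.49% of all transcripts did, and in PLA_1h against RA_0, where 0.994% did. Ankrd2 and Fhl2 met it as lower in PLA_1h against RA_0, where 0.673% did. No member met it in PLA_34d against RA_0, where 1.98% of all transcripts did as higher and 0.439% as lower, nor in AP_34d against PLA_34d, where 1.38% and 2.18% did, nor as lower in AP_34d against RA_0, where 1.33% did. The count was 3 without RA_0 replicate 1 and 5 without AP_1h replicate 1 or PLA_1h replicate 2, so it rests on single libraries.

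The level of slow fibre markers moved with that of several members. Over the 10 libraries Fhl1 had a Pearson r of 0.69 with the mean log2 level of the slow fibre list (permutation p = 0.0123) and a Spearman rho of 0.85 (permutation p = 0.00300), and without the 2 libraries farthest from the median of Fhl1 its r was 0.74. Ankrd2 had an r of 0.75 (permutation p = 0.0138, rho = 0.59 with permutation p = 0.0808), Fhl2 one of 0.74 (permutation p = 0.0200, rho = 0.65 with permutation p = 0.0493) and Actn2 one of 0.70 (permutation p = 0.0208, rho = 0.68 with permutation p = 0.0348), and without 2 libraries these values of r were 0.65, 0.69 and 0.57. Ankrd1 ran the other way with an r of -0.68 (permutation p = 0.0195, rho = -0.60 with permutation p = 0.0739), but without RA_0 replicate 1 and the other library farthest from its median this was -0.25, so the relation rests on those libraries. Myoz1 had an r of -0.31 (permutation p = 0.388) and Csrp3 one of 0.40 (permutation p = 0.271). Of the 28 relations computed, 21 between members and 7 with the slow fibre list, 0 passed at an adjusted p under 0.05, and the adjusted permutation p was 0.0729 for Fhl1, Ankrd2, Fhl2, Actn2 and Ankrd1 with the list.

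**Figure D3:**
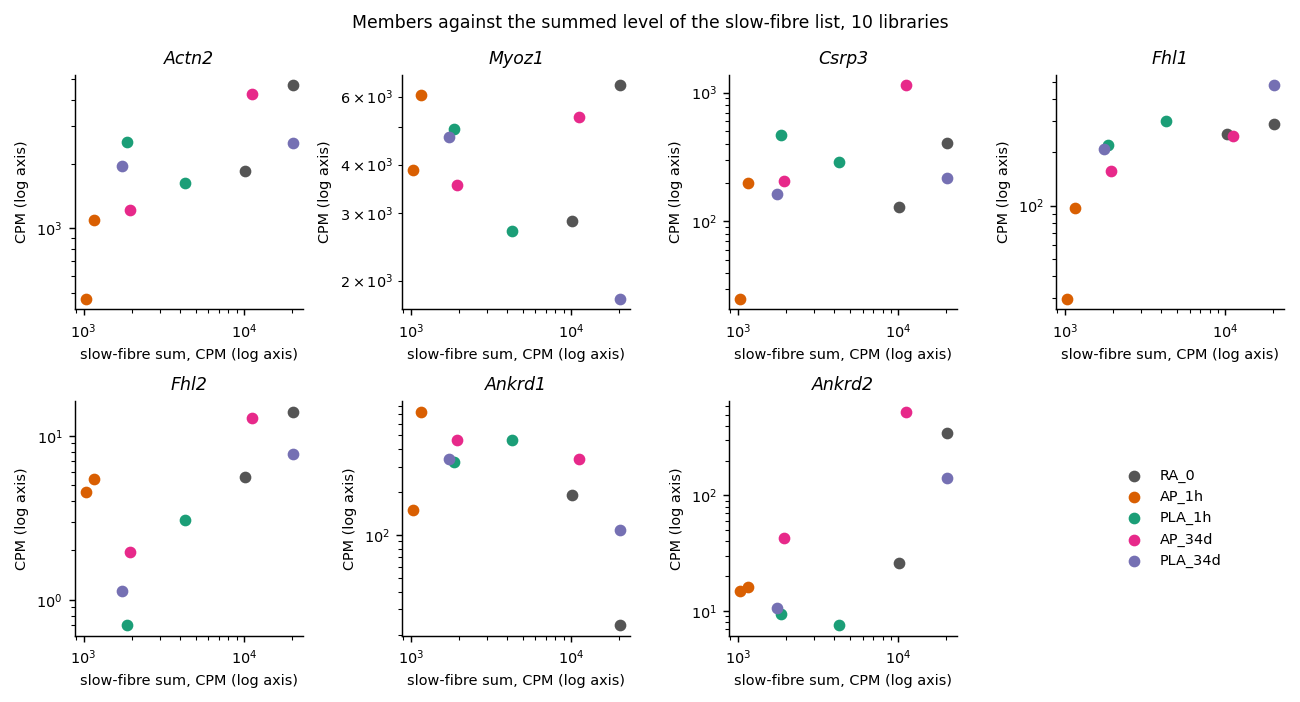
Level of each member in CPM against the summed CPM of the slow fibre list in the same library, both on log axes, with 1 point per library coloured by group. Fhl1, Actn2, Ankrd2 and Fhl2 tend to be higher where the slow fibre sum is higher, and the 2 AP_1h libraries have the lowest slow fibre sums.

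AP_1h had both the lowest slow fibre sums and the lowest Fhl1 and Actn2. The libraries nearest to it in slow fibre sum were PLA_34d replicate 2, PLA_1h replicate 2 and AP_34d replicate 2. Their sums were 1746, 1873 and 1936 CPM, against 1030 and 1155 CPM in AP_1h, so none was as low as AP_1h. In them Fhl1 was at 208, 219.9 and 157 CPM and Actn2 at 1959, 2525 and 1224 CPM, above both AP_1h libraries in each case. Myh1 and Myh2, heavy chains of fast fibres, were also lower in AP_1h. Myh1 was at 6070 and 10230 CPM there against at least 21230 CPM in the other 8 libraries, and Myh2 at 2938 and 5131 CPM against at least 6194 CPM. Myh4, the heavy chain of the fastest fibres, was at 34987 and 65741 CPM in AP_1h and between 13292 and 62049 CPM elsewhere. The part of fibre make-up in the levels of Fhl1 and Actn2 was not tested.

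Markers of other cells also differed between the AP_1h libraries. The summed leukocyte list was at 509 CPM in AP_1h replicate 1, the library with the lowest Fhl1, Actn2 and Csrp3, and at 152 CPM in AP_1h replicate 2, beside 111 to 134 CPM in RA_0, 161 to 171 CPM in PLA_1h, 119 to 234 CPM in AP_34d and 105 to 849 CPM in PLA_34d. In this list the 5 rows of Ptprc were at 0 in all libraries. PLA_34d replicate 1, with the highest leukocyte sum and the lowest skeletal muscle sum, had the highest Fhl1 of the series. The same library also had the highest slow fibre sum, 20163 CPM. Some markers of tendon were low in AP_1h as well. Of the 4 rows of the tendon list, 3 were below all 8 other libraries in both AP_1h libraries. Tnmd was at 0.216 and 0.420 CPM against at least 0.995 CPM, and Fmod at 10.8 and 4.90 CPM against at least 27.1 CPM. Chad was at 0.541 and 0.420 CPM against at least 2.84 CPM. The AP_1h values of Tnmd and Chad were below, at or near the floors that 3 reads set, 0.324 CPM in replicate 1 and 0.420 CPM in replicate 2. The same 3 of 4 met the study's rule as lower in AP_1h against RA_0, with a list median of -3.22, and against PLA_1h, with a list median of -2.22, and 0 were called by limma. Scx, the remaining row, was at 50.9 and 33.0 CPM in AP_1h and between 4.26 and 35.5 CPM elsewhere, and the list summed to 62.5 and 38.8 CPM in AP_1h against 35.3 to 264.5 CPM elsewhere. The part of other cells in the levels of the members was not tested.

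Between the members, the highest correlations over the 10 libraries were those of Csrp3 with Actn2 (Pearson r = 0.86, permutation p = 0.00249, Spearman rho = 0.75, permutation p = 0.0177), of Actn2 with Fhl1 (r = 0.82, permutation p = 0.00496, rho = 0.61, permutation p = 0.0667) and of Ankrd2 with Fhl2 (r = 0.81, permutation p = 0.00536, rho = 0.81, permutation p = 0.00716). The adjusted permutation p of each r was 0.05003, just above the threshold. Without the 2 libraries farthest from the median of the first gene the r was 0.56, 0.59 and 0.56 in turn, so their size rests partly on those libraries. The sister proteins Ankrd1 and Ankrd2 had an r of -0.55 (permutation p = 0.0932), which was -0.02 without 2 libraries. All these values come from the same 10 libraries, which differ in slow fibre markers as given before.

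The transcripts whose pattern was most like that of each member over the 10 libraries were found among all tested transcripts that are not members. Actn2 was most like Myot (r = 0.953), a Z-disc protein that binds alpha-actinin, and Lmcd1 (r = 0.951), a LIM protein. Myoz1 was most like Tpm1 (r = 0.965), a tropomyosin of the thin filament, and Tnnt3 (r = 0.964), the fast troponin T. Csrp3 was most like Hspb7 (r = 0.935), a small heat shock protein of muscle, and Smcr7l (r = 0.917). Fhl1 came with Fhl4 and Galnt5 (r = 0.932), Fhl2 with Lcmt2 (r = 0.914) and Ddx56 (r = 0.908), Ankrd1 with Ccdc127 (r = 0.918) and Rsrc1 (r = 0.906), and Ankrd2 with Gng3 (r = 0.947) and Eps8l2 (r = 0.944). With 10 libraries and 10259 transcripts such values are a description only, and several of these transcripts varied over a narrow range, as Lcmt2 did between 2.27 and 4.06 CPM.

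The other genes of the Z-disc and of the response to load were read from 3 lists of 53 symbols in all, of which 42 had a row and were tested. In limma 0 of their 252 tests over the 6 pairs passed. At an unadjusted p under 0.05 in limma there were 19 (7.54%), where 4.83% of the tests of all transcripts were. DESeq2 called 6 (2.38%), where it called 0.606% of all tests. It called Trim63 in AP_1h against RA_0, in AP_34d against RA_0 and in AP_34d against PLA_34d, which share libraries. The lists were chosen with earlier results of these data known, so these shares are a description only. By the study's rule, AP_1h against RA_0 held 2 of 13 transcripts of the Z-disc structure list lower (Pdlim1 and Synpo2), 1 of 9 of the paralogues of the members lower (Myoz2), and in the load response list 2 of 20 lower (Lmcd1 and Nrap) and 2 higher (Trim63 and Wwtr1), where 3.59% of all transcripts were lower and 2.53% higher. The medians of the 3 lists in that pair were -0.03, -0.09 and 0.12, beside 0.0020 over all transcripts.

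**Figure D4:**
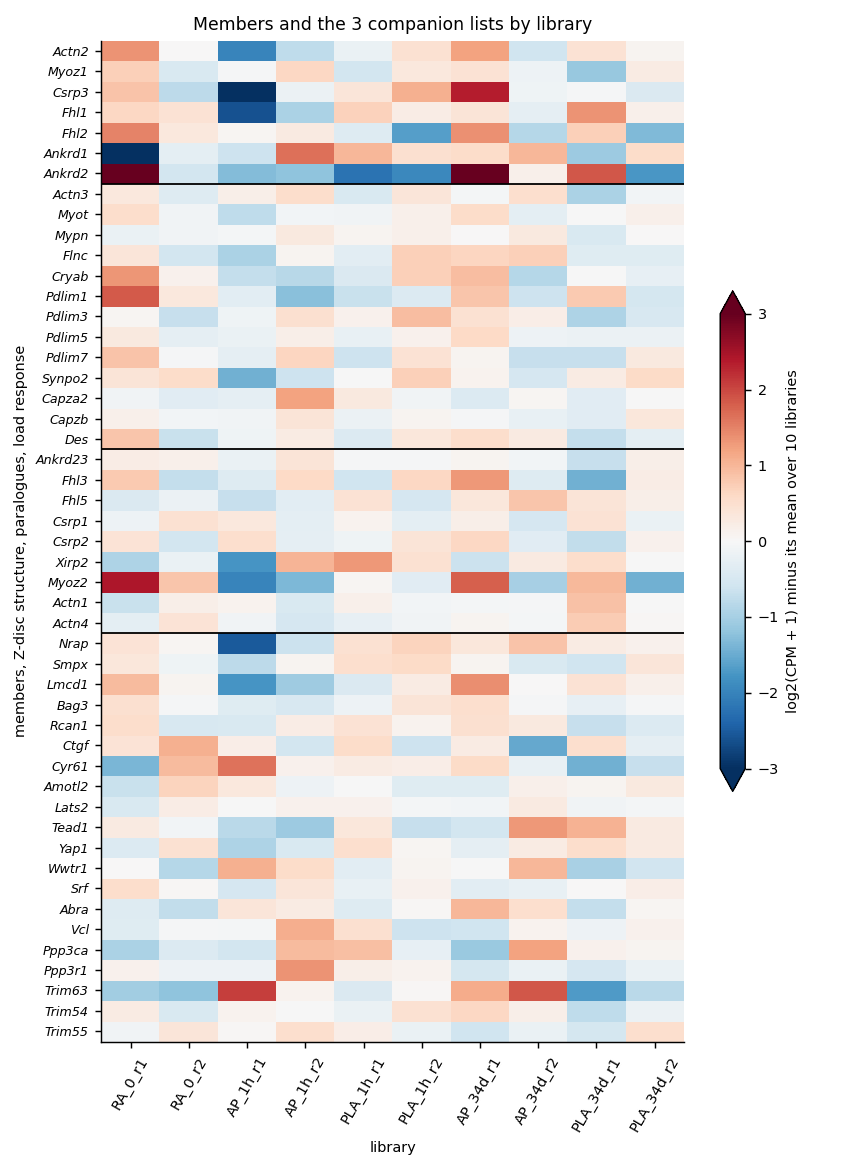
Log2(CPM + 1) of each member (top block) and of the genes of the Z-disc structure, paralogue and load response lists (lower blocks) minus its mean over the 10 libraries, by library. Actn2, Fhl1, Myoz2, Nrap and Lmcd1 are low in both AP_1h libraries, and Trim63 is high in AP_1h replicate 1 and in both AP_34d libraries.

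Among them Myoz2, the myozenin of slow fibres and heart and the paralogue of Myoz1, was at 1119 and 370 CPM in RA_0, at 51.9 and 81.4 CPM in AP_1h, at 215 and 164 CPM in PLA_1h, at 723 and 103 CPM in AP_34d and at 407 and 75.9 CPM in PLA_34d. Its log2 difference of AP_1h from RA_0 was -3.29 (SE 0.95, adjusted p = 0.305 in limma), where that of Myoz1 was 0.18. Nrap, a scaffold of forming myofibrils that binds muscle LIM protein and whose other transcript was at 0 in every library, was at 1.41 and 7.84 CPM in AP_1h and between 13.4 and 24.2 CPM in the other 8 libraries, with a log2 difference of -1.82 from RA_0 (SE 0.52, adjusted p = 0.305) and of -2.15 from PLA_1h (SE 0.52, adjusted p = 0.543). Lmcd1 was at 40.8 and 66.9 CPM in AP_1h and between 103 and 369 CPM elsewhere, with a log2 difference of -1.93 from RA_0 (SE 0.50, adjusted p = 0.242).

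Synpo2, an actin-binding partner of alpha-actinin, differed by -1.39 between AP_1h and PLA_1h (SE 0.47, adjusted p = 0.869 in limma) and Pdlim1, a PDZ and LIM protein on alpha-actinin, by -1.86 between AP_1h and RA_0 (SE 0.64, adjusted p = 0.417). In PLA_1h against RA_0 the log2 differences were -1.62 in Pdlim1 (SE 0.64, adjusted p = 1.00) and -1.77 in Myoz2 (SE 0.95, adjusted p = 1.00), and neither passed. Xirp2, the paralogue of Xirp1, was at 2071 and 3426 CPM in RA_0 and at 9645 and 5403 CPM in PLA_1h, a log2 difference of 1.44 (SE 0.88, adjusted p = 1.00), and Ppp3ca, a catalytic subunit of calcineurin, differed by 1.01 in the same pair (SE 0.72, adjusted p = 1.00). DESeq2 called Lmcd1, Myoz2, Synpo2 and Trim63 in AP_1h against RA_0.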

How the data were processed

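Total RNA of the 10 muscle samples was made into TruSeq v2 libraries and sequenced on an Illumina HiSeq instrument. According to the labels and the paper's methods, the authors processed reads with CASAVA 1.8.2 and cutadapt 1.2.1, aligned them with Bowtie2 2.1.0 to rn4 and counted them per transcript with HTSeq 0.5.4p3 in its intersection-nonempty mode. The kit does not mark strand. The deposited values are a signal per transcript, made by the authors from read counts scaled with edgeR 3.4.2 TMM factors to CPM. In each library 100% of values were whole multiples of 1 read within 0.01 reads, and the reads were recovered. Starts in the table count from 0, so 1 was added.

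Values were tested as log2(CPM + 1), which understates the change of low transcripts, with limma 3.58.1 (1 mean per group over all 10 libraries, eBayes with a mean trend, and 5 residual plus 5.14 prior degrees of freedom) in R 4.3.3, with Benjamini-Hochberg adjustment over 10259 transcripts (59.6%). Alternatives were limma-voom, edgeR 4.0.16 and DESeq2 1.42.0 on the recovered reads, pseudocounts of 0.25 and 4, other filters and scalings, the compared groups alone, a replicate block, transcripts summed per symbol and each library left out. Correlations used 100000 permutations, two-sided, over 28 relations. Fits were tested on simulated data. Figures were drawn with matplotlib 3.10.9.

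Every member is given in every library. Log2 differences with their errors are given in full where the libraries of a pair did not overlap and differed by at least 2-fold, as are up to 5 genes per pair of the companion lists, and the 2 transcripts most like each member are named. The members and all lists were chosen with earlier results of these data known. The 2 replicates of a group are separate rats per the series' design text. Floors cover counting error only, at 3 reads.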

Additional observations from a re-analysis of the deposited data

How the results depend on the processing

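Over the 24 alternatives, counts of called members stayed at 0 in all 7 tests except AP_1h against RA_0, where DESeq2 and the fit of the compared groups alone each called 1 (Fhl1, with log2 differences of -2.09 and -2.30). Over the 6 pairs DESeq2 called 0.606% of the tests of all transcripts. Its share in AP_1h against RA_0 alone, and the share called by the fit of the compared groups alone, are not given here. The 11 named log2 differences kept their sign in all 24. They were chosen for libraries without overlap, so leaving out 1 library could not reverse a sign. Several other alternatives, such as the fit without a mean trend and the replicate block, left the estimate itself the same. The count of tests meeting the study's rule, 9, was 5 with no filter on low values, 5 with edgeR, 7 with limma-voom, 7 with DESeq2, 13 with the compared groups alone and between 3 and 11 with each library left out. For the companion lists the count of calls, 0, was 6 with DESeq2 and 2 with the compared groups alone. Of the 28 relations between members or with the slow fibre list, 0 passed the adjusted test in the main setting. This count was 3 with a pseudocount of 4, 3 with DESeq2 size factors and 6 with quantile normalization. It was 3 with transcripts summed per symbol and between 0 and 1 with each library left out. Summing left the levels of the members unchanged, because NM_145669 of Fhl1 was at 0 in every library. In the main setting the 3 highest relations between members had an adjusted permutation p of 0.05003, just above the threshold. The cause of the changes in these counts was not tested. Leaving the 20 most abundant transcripts out of the library total moved the median of all transcripts by 0.11 in AP_1h against RA_0, by 0.16 in PLA_34d against RA_0, by -0.15 in AP_34d against PLA_34d and by -0.22 in the interaction, without changing the sign of a named difference.

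Replicate numbers are shared by the groups, and the correlations of same-numbered deviations ran from -0.46 to 0.45. With 2 libraries per group these values cannot tell whether the numbers pair the animals, and the main fit did not pair them. With a replicate block 0 members were called in any test and 10 tests met the study's rule. With 2 animals per group, only large differences pass: the SE of a member's log2 difference was between 0.56 and 1.43.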

Other observations

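Trim63 and Abra, both of the load response list, were singled out after their values were seen, because all 4 AP libraries were above all 6 others (by little for Trim63 in AP_1h replicate 2), as in 0.78% of all transcripts tested and in 0 of the 7 members. Trim63, a ubiquitin ligase of the sarcomere that is known for its part in muscle atrophy, was at 2666 and 680 CPM in AP_1h and at 1375 and 2296 CPM in AP_34d, against 306 and 276 CPM in RA_0, 468 and 646 CPM in PLA_1h and 196 and 364 CPM in PLA_34d. Its log2 difference of AP_34d from PLA_34d was 2.73 (SE 0.61, unadjusted p = 0.00118 and adjusted p = 0.756 in limma), and DESeq2 called it there with an adjusted p of 0.00227. Abra, an actin-binding activator of serum response factor signalling, was at 741 and 683 CPM in AP_1h and at 1153 and 824 CPM in AP_34d, against 344 to 604 CPM in the other 6 libraries, with a log2 difference of AP_34d from PLA_34d of 1.08 (SE 0.40, adjusted p = 0.846 in limma). In the same pair Wwtr1, a transcriptional coactivator of the Hippo pathway, differed by 1.26 (SE 0.43), Cyr61, a target of that pathway, by 1.24 (SE 0.71), and Flnc, an actin cross-linker of the Z-disc, by 1.04 (SE 0.56), and none of them passed. Ctgf, also a target of that pathway, was lower in AP_34d than in RA_0 by a log2 difference of -1.39 (SE 0.60, adjusted p = 0.967 in limma).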
